A study of Mus musculus with 6 samples.

Results

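The mitotic genes described here are 56 of the 40413 genes in the count table of a mouse neuroblastoma line, taken by name from a list of genes that act between G2 phase and the end of cell division. They cover mitotic cyclins and kinases, the spindle checkpoint, the kinetochore, the chromosomal passenger complex, the spindle, cytokinesis, condensin and the transcription factors that drive the programme. RNA was sequenced in 6 libraries of N2A-A5 cells, which the labels call acceptor cells of N2A, the Neuro-2a neuroblastoma line; the sources used here do not give the acceptor construct or say whether A5 is a single clone. The 3 libraries at 96 h came from cells differentiated in 1% fetal bovine serum with 10 µM retinoic acid and no blasticidin. The 3 libraries at 0 h came from undifferentiated cells in medium with 10% fetal bovine serum and 10 µg/mL blasticidin, and the design text calls the 3 of each group biological replicates. Retinoic acid, serum, blasticidin and time changed together and cannot be told apart.

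Cells enter mitosis when cyclin A and cyclin B activate the kinase CDK1, with Polo-like and Aurora kinases acting beside it. Condensin compacts the chromosomes, kinetochores attach them to the spindle, and the spindle checkpoint restrains the anaphase-promoting complex (APC/C) until all are attached. The genes for these proteins are transcribed late in the cell cycle. Their promoters often carry a CHR element, bound by the MuvB complex, and CCAAT boxes, bound by NF-Y; MuvB represses them in resting cells as part of the DREAM complex and activates them in dividing cells together with B-MYB and FOXM1. Neurons are postmitotic, and retinoic acid is widely used to make neuroblastoma lines stop dividing and extend neurites.

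Most of the mitotic genes were lower at 96 h, by modest folds, while a small set was higher. Of the 56, 38 were lower, 7 were higher and 11 did not pass the test (edgeR quasi-likelihood test, Benjamini-Hochberg adjusted p under 0.05 over all 13705 genes tested). Of all tested genes, 57.4% passed in either direction, with 28.8% lower and 28.7% higher. The median log2 fold change of the mitotic genes (96 h minus 0 h) was −0.34, beside 0.03 for all tested genes, and the members ran from −1.35 for Mybl2 to 0.88 for Pttg1. All 56 passed the filter on low counts. For 45 of the 56, or 80.4%, every 96 h library lay on the same side of all 0 h libraries, beside 64.1% of all tested genes. Of the 56, 3 were lower by at least 2-fold, Mybl2, Mki67 and Kif23, beside 517 of the 13705 tested genes (3.77%). Summed over the 56 genes, 4807 to 5047 CPM (depth-scaled counts, with library sizes scaled by TMM factors) were measured at 96 h, against 6652 to 6924 CPM at 0 h, a ratio of 0.721. In bulk RNA, fewer cells in G2 and mitosis cannot be told apart from less of these mRNAs per cell.

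**Figure D1:**
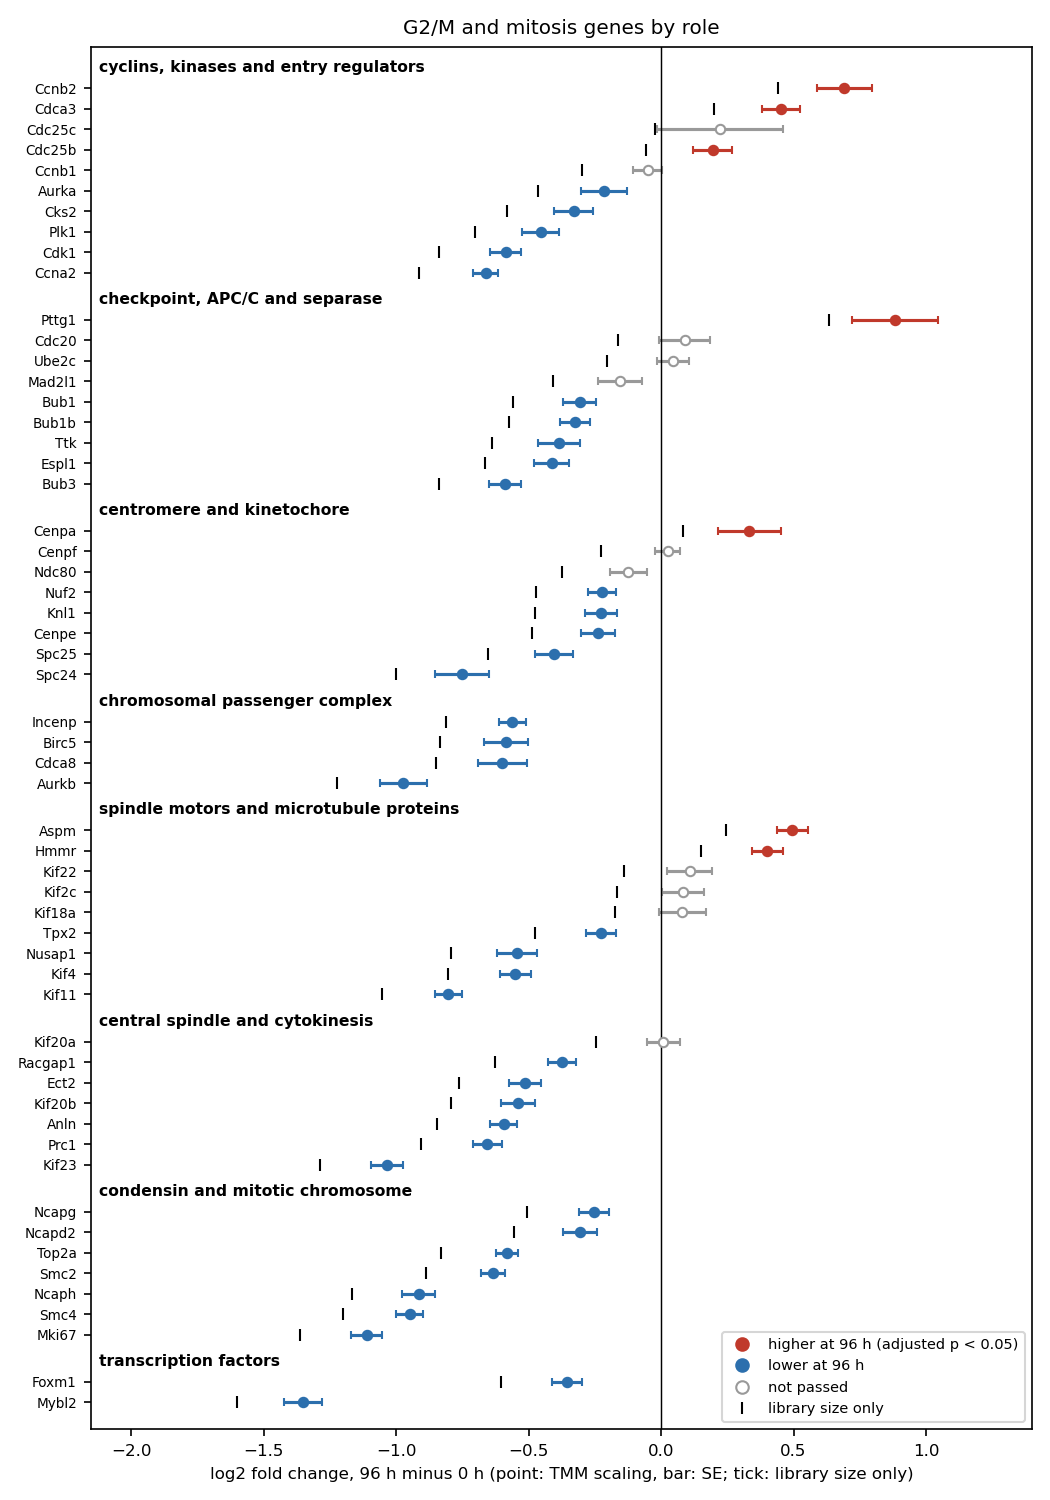
Log2 fold change (96 h minus 0 h, x axis) of each of the 56 mitotic genes, grouped by role, with bars of 1 standard error and ticks for scaling by library size only. All genes of the passenger complex and of the condensin and chromosome group lie below 0, while Pttg1 and Ccnb2 lie farthest above it.

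Library makeup moved with the groups. Libraries held 16.8 M to 19.0 M counts at 96 h, against 17.6 M to 20.9 M at 0 h (M for mega). A single predicted gene, Gm26917, took 28.7% to 31.7% of counts at 96 h, against 18.7% to 22.7% at 0 h. Together with mitochondrial, ribosomal and small nuclear and nucleolar RNA genes it took 43.2% to 46.6% at 96 h, against 28.9% to 33.0% at 0 h. Scaling by library size only, in place of TMM, shifted the log2 fold changes by about −0.25, which left 3 mitotic genes higher and 44 lower, beside 17.6% higher and 42.7% lower among all tested genes. The rises of Ccnb2, Pttg1 and Aspm passed the test under both scalings, while those of Cdc25b, Cdca3, Cenpa and Hmmr did not pass with library size only. Summed markers of sympathoadrenal neuroblastoma were at 2023 to 2167 CPM at 96 h, against 1937 to 2021 CPM at 0 h. Of the 11 of its 12 markers tested, 2 were higher, Prph and Stmn2, and 8 lower. Prph, the largest part of the sum, had means of 1043 CPM at 96 h and 567 CPM at 0 h. Among the 8 lower, Chga had means of 198 CPM at 96 h and 335 CPM at 0 h. Dbh had means of 0.445 CPM at 96 h and 4.18 CPM at 0 h. Fibroblast markers summed to 10.5 to 12.2 CPM at 96 h, against 4.49 to 4.76 CPM at 0 h, with 3 of 7 tested, 2 of them higher, and Col3a1 and Lum at 0. The lists for endothelial cells, macrophages, astrocytes and oligodendrocytes summed to between 0 and 7.66 CPM each at 96 h, against 0.723 to 8.36 CPM at 0 h, with 1 gene of each list tested. The part of these levels in the results was not tested.

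The promoters of 8 genes are shown because they hold the same late cell-cycle elements while their mRNAs moved differently. Ccnb2, Hmmr and Aspm were higher at 96 h, Cenpf and Cdc20 did not pass the test, and Cdk1, Kif11 and Kif23 were lower. Each window runs 5′ to 3′ along the gene's strand from 110 bases before to 20 bases after the start in RefSeq, build GRCm38.p6, which is an earlier build than the mm39 of the counts. Capitals mark TTTGAA, the CHR core, and CCAAT, the NF-Y box, on either strand (TTCAAA and ATTGG on the other).
Ccnb2, chr9:70421535-70421664, minus strand: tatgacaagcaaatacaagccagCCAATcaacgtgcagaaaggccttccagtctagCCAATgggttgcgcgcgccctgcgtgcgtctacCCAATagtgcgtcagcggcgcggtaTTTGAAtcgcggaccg
Hmmr, chr11:40733418-40733547, minus strand: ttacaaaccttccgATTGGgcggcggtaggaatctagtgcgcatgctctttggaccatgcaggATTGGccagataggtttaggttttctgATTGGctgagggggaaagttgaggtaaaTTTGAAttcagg
Aspm, chr1:139454663-139454792, plus strand: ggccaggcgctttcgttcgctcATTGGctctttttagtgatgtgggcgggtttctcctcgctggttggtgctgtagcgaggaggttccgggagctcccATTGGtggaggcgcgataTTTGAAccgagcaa
Cenpf, chr1:189688067-189688196, minus strand: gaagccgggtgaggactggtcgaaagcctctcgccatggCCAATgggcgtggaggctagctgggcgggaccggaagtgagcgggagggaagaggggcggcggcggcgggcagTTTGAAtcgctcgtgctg
Cdc20, chr4:118437324-118437453, minus strand: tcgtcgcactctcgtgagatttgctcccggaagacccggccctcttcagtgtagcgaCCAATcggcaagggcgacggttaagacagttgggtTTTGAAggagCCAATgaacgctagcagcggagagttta
Cdk1, chr10:69352893-69353022, minus strand: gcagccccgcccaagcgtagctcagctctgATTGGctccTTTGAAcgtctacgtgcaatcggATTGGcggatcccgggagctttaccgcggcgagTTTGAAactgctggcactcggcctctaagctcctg
Kif11, chr19:37376272-37376401, plus strand: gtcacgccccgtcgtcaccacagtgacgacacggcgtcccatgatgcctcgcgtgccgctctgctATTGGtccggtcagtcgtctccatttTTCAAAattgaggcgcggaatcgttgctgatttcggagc
Kif23, chr9:61946780-61946909, minus strand: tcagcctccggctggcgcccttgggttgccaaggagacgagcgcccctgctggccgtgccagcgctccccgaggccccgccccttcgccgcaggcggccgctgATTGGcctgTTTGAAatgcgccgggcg
All 8 windows hold both motifs. In Ccnb2, Hmmr and Aspm, which rose, in Cenpf, which did not pass, and in Kif23, which fell, the CHR core lies near the 3′ end of the window, close to the start of transcription. A core also lies close to the start in Cdc20, Cdk1 and Kif11, with its first base at −18, −15 and −19 from it. In Ccnb2 and Hmmr 3 CCAAT boxes precede the core. Cdk1 holds 2 CHR cores and 2 CCAAT boxes, and in Kif11 the core reads TTCAAA, on the other strand.

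Of 10 cyclins, kinases and regulators of mitotic entry, 3 rose, 5 fell and 2 did not pass, with a median log2 fold change of −0.13. To set beside this and each later role group, 28.7% of all tested genes were higher and 28.8% lower. With library size only, 1 of the 10 was higher and 6 lower, beside 17.6% and 42.7% of all tested genes. Cyclin A2 (Ccna2), which works in S phase and G2, was at 97.8, 99.2 and 102 CPM at 96 h, against 154, 163 and 156 CPM at 0 h. Every 96 h library was below every 0 h library, and the log2 fold change was −0.66 ± 0.05 (SE; edgeR adjusted p = 5.79e-08). Its partner Cdk1, the mitotic kinase, was at 74.7, 76.3 and 85.9 CPM at 96 h, against 118, 121 and 117 CPM at 0 h. The groups again did not overlap (log2 fold change −0.59 ± 0.06, edgeR adjusted p = 1.41e-06). Cyclin B1 (Ccnb1), the main mitotic partner of CDK1, was at 117, 121 and 120.4 CPM at 96 h, against 122, 116 and 133 CPM at 0 h. These libraries overlapped, and the log2 fold change of −0.05 ± 0.06 did not pass (edgeR adjusted p = 0.46); it was 0.03 with upper-quartile scaling and −0.30 with library size only (adjusted p = 8.00e-04). Ccnb1 has a processed copy, Ccnb1-ps, at 4.17 ± 0.25 CPM at 96 h and 5.19 ± 0.33 CPM at 0 h (SD, n = 3 each, as below), with which it could share reads, so its value is uncertain.

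Cyclin B2 (Ccnb2), the Golgi-associated B cyclin, went the other way. It was at 16.8, 16.7 and 16.8 CPM at 96 h, against 9.66, 11.3 and 10.1 CPM at 0 h. All 3 libraries at 96 h were above those at 0 h and nearly equal to each other, and the level was 1.62-fold higher (log2 fold change 0.69 ± 0.11, edgeR adjusted p = 7.31e-05). Cdca3, a subunit of a ubiquitin ligase that promotes mitotic entry, was 1.37-fold higher, at 41.2 ± 1.5 CPM at 96 h and 30.1 ± 2.2 CPM at 0 h (edgeR adjusted p = 1.11e-04), but its rise did not pass with library size only (adjusted p = 0.0631). Cdc25b, a phosphatase that activates CDK1, rose 1.14-fold (edgeR adjusted p = 0.0335). That call was lost with the DESeq2 Wald test (adjusted p = 0.171), without the low-count filter (0.128), or when replicate 1 or 3 of 0 h (0.111 and 0.114) or replicate 1 or 3 of 96 h (0.0785 and 0.150) was left out, and its log2 fold change was −0.06 with library size only. The related Cdc25c, at 3.02 to 5.90 CPM in the 6 libraries, did not pass. Polo-like kinase 1 (Plk1) fell 1.37-fold, to 42.4 ± 2.0 CPM at 96 h, against 58.2 ± 4.8 CPM at 0 h (edgeR adjusted p = 8.97e-05). Cks2, a small CDK-binding protein, fell 1.26-fold. Aurka, the centrosomal Aurora kinase, was 1.16-fold lower at the edge of the threshold (edgeR adjusted p = 0.0486), and the call was lost with upper-quartile scaling (0.200), a stricter filter (0.0690), limma-voom (0.0678), or without replicate 3 of 0 h (0.194), replicate 1 of 96 h (0.146) or replicate 2 of 96 h (0.0888).

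**Figure D2:**
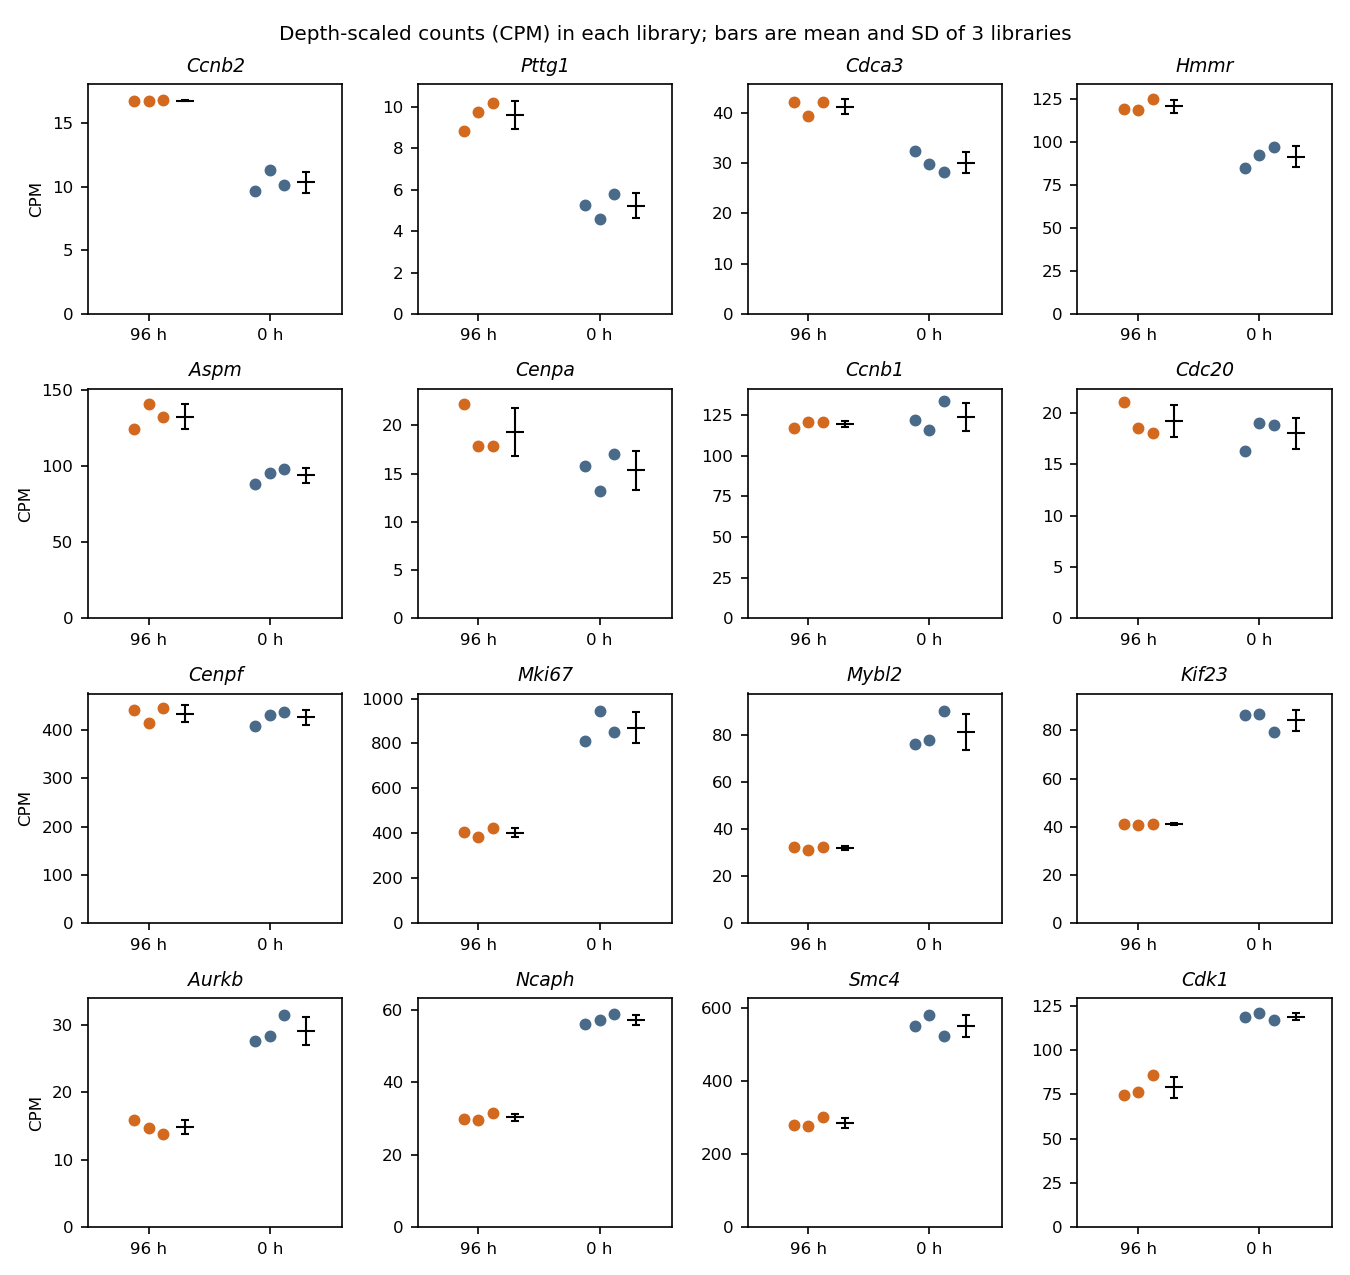
CPM in each library (y axis, separate scale per gene) of 16 mitotic genes at 96 h (left) and 0 h (right), with bars of the mean and SD. The 96 h points lie above all 0 h points for Ccnb2, Pttg1, Cdca3, Hmmr, Aspm and Cenpa, overlap them for Ccnb1, Cdc20 and Cenpf, and lie below them for Mki67, Mybl2, Kif23, Aurkb, Ncaph, Smc4 and Cdk1.

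Among 9 genes of the checkpoint, the APC/C and separase, 5 fell, 1 rose and 3 did not pass, with a median log2 fold change of −0.31. The checkpoint kinases and scaffolds fell together and modestly. Bub3, which brings BUB1 to kinetochores, was at 53.2, 55.99 and 56.1 CPM at 96 h, against 84.1, 77.6 and 86.9 CPM at 0 h. This was the deepest fall of the checkpoint genes, at 1.503-fold with no overlap (log2 fold change −0.59 ± 0.06, edgeR adjusted p = 1.72e-06). The kinases Bub1 and Ttk fell 1.24-fold and 1.31-fold, and the pseudokinase Bub1b fell 1.25-fold. Mad2l1, the checkpoint protein that holds CDC20, was at 38.0, 44.7 and 45.4 CPM at 96 h, against 52.5, 46.0 and 44.5 CPM at 0 h, with overlap and no call (edgeR adjusted p = 0.123). It passed as lower with library size only (log2 fold change −0.41). Cdc20, the APC/C activator that the checkpoint holds back, was at 21.0, 18.6 and 18.1 CPM at 96 h, against 16.3, 19.0 and 18.8 CPM at 0 h. Ube2c, the ubiquitin-conjugating enzyme of the APC/C, was at 75.9 ± 0.8 CPM at 96 h and 73.6 ± 4.8 CPM at 0 h. Neither passed with TMM (edgeR adjusted p = 0.453 for Cdc20 and 0.532 for Ube2c), and with library size only Ube2c was lower (log2 fold change −0.20, adjusted p = 0.0141).

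Separase and its inhibitor differed. Separase (Espl1), the protease that cleaves cohesin at anaphase, was 1.33-fold lower, at 73.4 ± 6.4 CPM at 96 h and 97.7 ± 4.7 CPM at 0 h (edgeR adjusted p = 1.21e-04). Securin (Pttg1), which keeps separase inactive until anaphase, was at 8.86, 9.76 and 10.2 CPM at 96 h, against 5.27, 4.60 and 5.80 CPM at 0 h. The groups did not overlap, and Pttg1 had the highest fold change of the 56 genes, 1.84-fold higher at a low level (log2 fold change 0.88 ± 0.16, edgeR adjusted p = 3.42e-04).

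Of 8 centromere and kinetochore genes, 5 fell, 1 rose and 2 did not pass, and most differences were small (median log2 fold change −0.22). Spc24, a subunit of the NDC80 complex that binds microtubules, fell the most, with 11.5, 10.8 and 13.5 CPM at 96 h, against 20.5, 20.2 and 19.6 CPM at 0 h. That is 1.68-fold lower without overlap (log2 fold change −0.75 ± 0.10, edgeR adjusted p = 2.56e-05). Its partners in the complex moved less: Spc25 fell 1.32-fold and Nuf2 fell 1.17-fold, while Ndc80 did not pass (log2 fold change −0.12 ± 0.07, edgeR adjusted p = 0.159) but did with library size only (−0.38). Knl1, the scaffold that recruits the checkpoint proteins, fell 1.17-fold. The kinetochore kinesin Cenpe fell 1.18-fold, and this call was lost with upper-quartile scaling (adjusted p = 0.0514). Cenpf, a large protein of the outer kinetochore and nuclear matrix, was at 442, 414 and 446 CPM at 96 h, against 409, 432 and 439 CPM at 0 h. Its groups overlapped (edgeR adjusted p = 0.669), and its log2 fold change was −0.23 with library size only (adjusted p = 0.00629). Cenpa, the histone H3 variant of centromeres, was at 22.2, 17.9 and 17.9 CPM at 96 h, against 15.8, 13.2 and 17.0 CPM at 0 h. The 1.26-fold rise (edgeR adjusted p = 0.0267) was lost with library size only (0.550), with the DESeq2 Wald test (0.0917), and without replicate 1 of 96 h (0.186), replicate 1 of 0 h (0.0540) or replicate 2 of 0 h (0.150).

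All 4 genes of the chromosomal passenger complex fell, with a median log2 fold change of −0.59. This complex corrects wrong attachments at the centromere and later moves to the central spindle. Its kinase Aurkb was at 15.9, 14.8 and 13.9 CPM at 96 h, against 27.6, 28.4 and 31.5 CPM at 0 h. All 96 h libraries were well below the lowest 0 h library, a 1.96-fold fall (log2 fold change −0.97 ± 0.09, edgeR adjusted p = 5.13e-07). Its scaffold Incenp fell 1.48-fold and borealin (Cdca8) fell 1.51-fold. Survivin (Birc5) was at 46.3 ± 6.3 CPM at 96 h and 69.5 ± 1.6 CPM at 0 h (log2 fold change −0.58 ± 0.08).

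Of 9 spindle motors and microtubule proteins, 4 were lower, 2 higher and 3 did not pass. Their median log2 fold change was 0.08, and −0.17 with library size only. Among all tested genes, 28.8% were lower and 28.7% higher. Kif11, the kinesin that pushes spindle poles apart, was at 97.5, 106 and 102 CPM at 96 h, against 181, 181 and 171 CPM at 0 h. It was 1.74-fold lower with a wide gap between the groups (log2 fold change −0.80 ± 0.05, edgeR adjusted p = 1.42e-08). The chromosome-arm kinesin Kif4 and the microtubule bundler Nusap1 fell 1.46-fold each, and Tpx2, which activates Aurora A on spindles, fell 1.17-fold. Aspm, a spindle pole protein mutated in human microcephaly, was at 124, 141 and 132 CPM at 96 h, against 88.3, 95.5 and 97.6 CPM at 0 h. It was 1.41-fold higher without overlap (log2 fold change 0.50 ± 0.06, edgeR adjusted p = 7.66e-06). Hmmr, a spindle-assembly protein also known as a hyaluronan receptor, was at 119, 118 and 125 CPM at 96 h, against 84.8, 92.4 and 97.1 CPM at 0 h. Its 1.32-fold rise (edgeR adjusted p = 4.31e-05) did not pass with library size only (0.0747). The microtubule-depolymerising kinesin Kif2c, the chromosome-aligning kinesin Kif18a and the chromokinesin Kif22 had log2 fold changes of 0.08, 0.08 and 0.11 and did not pass, and all 3 were below 0 with library size only.

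Of 7 central spindle and cytokinesis genes, 6 fell and 1 did not pass, with a median log2 fold change of −0.54. Kif23, the kinesin of the centralspindlin complex, was at 41.1, 40.9 and 41.3 CPM at 96 h, against 86.4, 86.9 and 79.2 CPM at 0 h. The 3 libraries at 96 h were close to each other and all below 0 h, a 2.05-fold fall (log2 fold change −1.03 ± 0.06, edgeR adjusted p = 5.98e-09). Racgap1, the other subunit of centralspindlin, fell 1.30-fold, to 195 ± 11 CPM at 96 h, against 252 ± 13 CPM at 0 h (edgeR adjusted p = 4.26e-05). Prc1, which bundles antiparallel microtubules, fell 1.58-fold, the furrow scaffold Anln 1.51-fold, the kinesin Kif20b 1.46-fold and the RhoA activator Ect2 1.43-fold. Kif20a, the kinesin that carries the passenger complex to the central spindle, was at 77.3, 66.8 and 69.1 CPM at 96 h, against 70.4, 69.8 and 71.6 CPM at 0 h. It did not pass (edgeR adjusted p = 0.923) and was lower with library size only (log2 fold change −0.24, adjusted p = 0.0074).

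All 7 condensin and mitotic chromosome genes fell, with a median log2 fold change of −0.64, and their summed level was 0.574 of that at 0 h. Smc4, a core ATPase of condensin, was at 278, 277 and 301 CPM at 96 h, against 549, 581 and 522 CPM at 0 h. The gap between the groups was far wider than the spread within them (1.93-fold lower, log2 fold change −0.95 ± 0.05, edgeR adjusted p = 3.16e-09). The other core ATPase, Smc2, fell 1.55-fold. Among subunits of condensin I, Ncaph was at 29.9, 29.7 and 31.5 CPM at 96 h, against 55.98, 57.1 and 58.8 CPM at 0 h, a 1.89-fold fall (edgeR adjusted p = 2.67e-08). Ncapg and Ncapd2 fell less, 1.19-fold and 1.24-fold. Ki-67 (Mki67), the coat of mitotic chromosomes and a marker of proliferation, was at 405, 381 and 421 CPM at 96 h, against 811, 946 and 851 CPM at 0 h. Each 96 h library was far below the lowest 0 h library (2.16-fold lower, log2 fold change −1.11 ± 0.06, edgeR adjusted p = 2.51e-09). Topoisomerase II alpha (Top2a), which untangles sister chromatids, fell 1.497-fold, to 585 ± 18 CPM at 96 h, against 876 ± 23 CPM at 0 h (edgeR adjusted p = 5.66e-08).

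Both transcription factors fell. B-MYB (Mybl2), the MuvB partner that opens the late cell-cycle programme, was at 32.3, 31.1 and 32.4 CPM at 96 h, against 76.1, 78.1 and 90.2 CPM at 0 h. It was 2.55-fold lower, the deepest fall of the 56 genes (log2 fold change −1.35 ± 0.07, edgeR adjusted p = 3.16e-09). Foxm1, which acts after it, fell 1.28-fold, to 91.5 ± 5.2 CPM at 96 h, against 117 ± 4.6 CPM at 0 h (edgeR adjusted p = 1.07e-04).

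**Figure D3:**
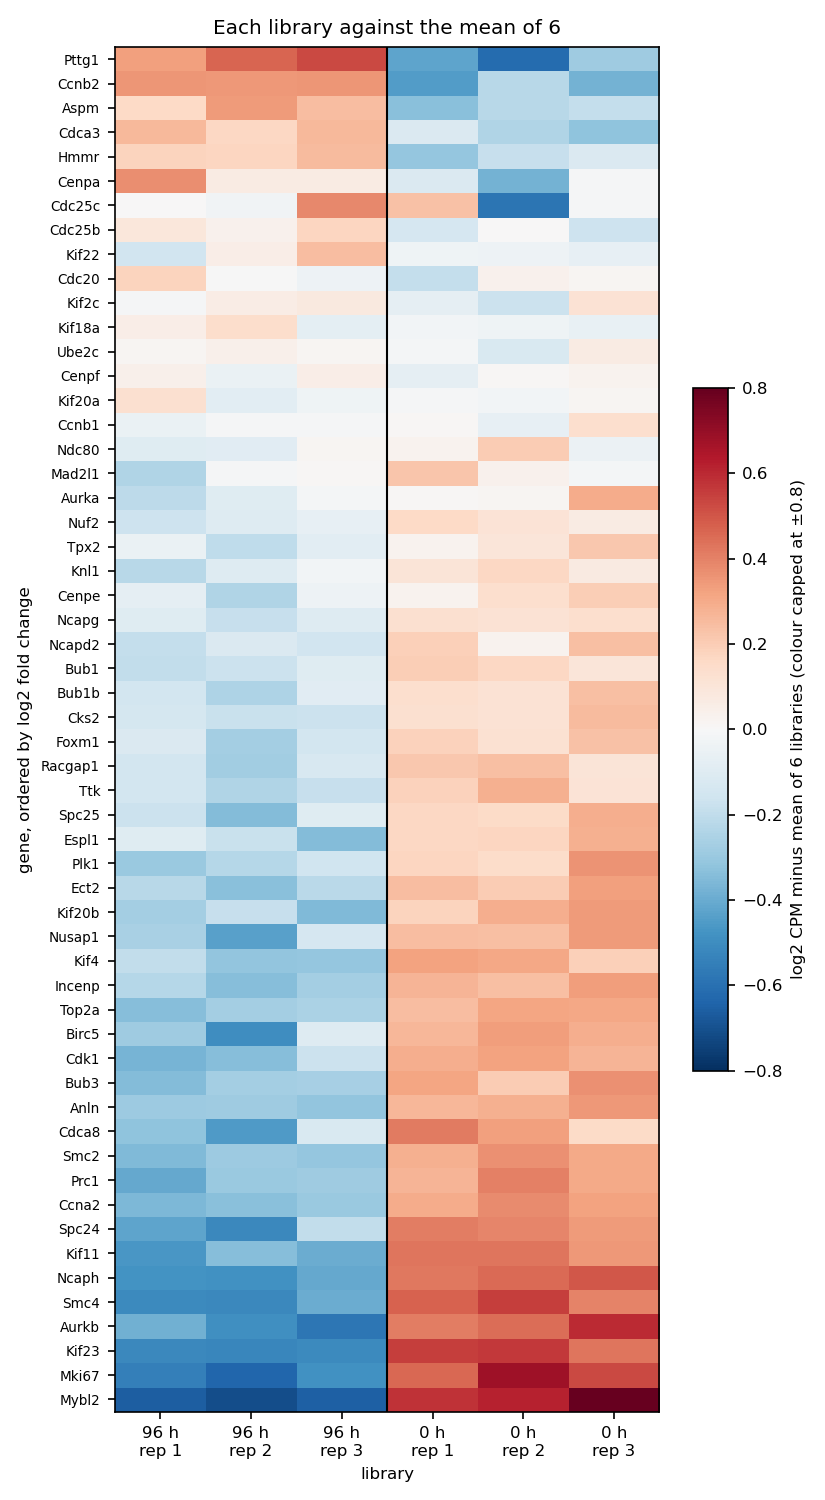
Each library's log2 CPM minus the gene's mean over the 6 libraries (colour) for the 56 mitotic genes, with rows ordered by log2 fold change. The 96 h libraries are in the left columns and the 0 h libraries in the right ones. Mybl2, Mki67, Kif23, Aurkb and Smc4 stand out as low at 96 h, and Pttg1 and Ccnb2 as high at 96 h.

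Ratios of 2 genes within a library do not depend on the scaling, and 6 such ratios, chosen after the values were seen and given without a test, show how far members shifted against each other. Ccnb2 counts per Ccna2 count were 0.172, 0.169 and 0.165 at 96 h, against 0.0629, 0.0693 and 0.0648 at 0 h, 2.56-fold apart. Ccnb2 per Ccnb1 was 0.143, 0.139 and 0.140 at 96 h, against 0.0792, 0.0974 and 0.0760 at 0 h. The mix of the cyclins was weighted more to cyclin B2 in all 3 libraries at 96 h. Aspm per Kif23 was 3.02, 3.44 and 3.19 at 96 h, against 1.02, 1.099 and 1.23 at 0 h, and Hmmr per Kif11 was 1.22, 1.11 and 1.22 at 96 h, against 0.468, 0.509 and 0.567 at 0 h. Cenpf per Mki67 was 1.09, 1.09 and 1.06 at 96 h, against 0.505, 0.457 and 0.516 at 0 h, and Cdc20 per Mybl2 was 0.652, 0.597 and 0.559 at 96 h, against 0.214, 0.244 and 0.209 at 0 h. None of the 6 ratios overlapped between the groups, as the choice of pairs made likely, so this adds no evidence.

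Per length of the longest coding transcript, the most abundant mitotic mRNA was Top2a, with a level of 112 CPM per kb at 96 h and 168 CPM per kb at 0 h. Smc4 followed with 66.2 CPM per kb at 96 h and 128 CPM per kb at 0 h, and next at 96 h was Racgap1, with 63.8 CPM per kb at 96 h and 82.6 CPM per kb at 0 h, where Mki67 (40.0 CPM per kb at 96 h and 86.4 CPM per kb at 0 h) was above it. Cyclin B1 stood at 48.0 CPM per kb at 96 h and 49.7 CPM per kb at 0 h, well above cyclin B2 at 10.95 CPM per kb at 96 h and 6.77 CPM per kb at 0 h. The lowest levels were those of Cdc25c, at 2.55 CPM per kb at 96 h and 2.20 CPM per kb at 0 h. Next at 96 h came Kif18a (5.37 CPM per kb, against 5.08 at 0 h), Mad2l1 (5.65 CPM per kb, against 6.31 at 0 h) and Pttg1 (5.74 CPM per kb, against 3.12 at 0 h). Mad2l1 was at 42.7 CPM at 96 h, and its low rank rests on a longest coding transcript of 7557 bases.

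Both promoter motifs occurred in mitotic genes that rose, in those that fell and in those that did not pass. RefSeq windows from 250 bases before to 50 after the start were matched for 47 of the 56 genes. For 3 of them 2 start windows were searched, and a site in both windows has a distance to each start. A site within 50 bases of either start was counted as near. TTTGAA, searched on both strands, was in 34 of the 47 (72.3%), and in 14.5% of 10152 tested genes with a window; in 31 of the 34 it lay within 50 bases of the start. CCAAT was in 34 of the 47 (72.3%), and in 44.1% of all. Both were in 29 of the 47 (61.7%), and in 7.57% of all. The E2F-type motif TTTCCCGC was in 1 of the 47 (2.13%), and in 2.38% of all. Of the 34 with TTTGAA, 5 were higher, 23 lower and 6 did not pass (median log2 fold change −0.38), and of the 13 without it 2 were higher, 8 lower and 3 did not pass (median −0.24). The windows of Mybl2 and Pttg1, which bound the range of fold changes, hold neither TTTGAA nor CCAAT, and that of Ccnb1 holds CCAAT without TTTGAA. A match is a run of letters, not a measured binding site.

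**Figure D4:**
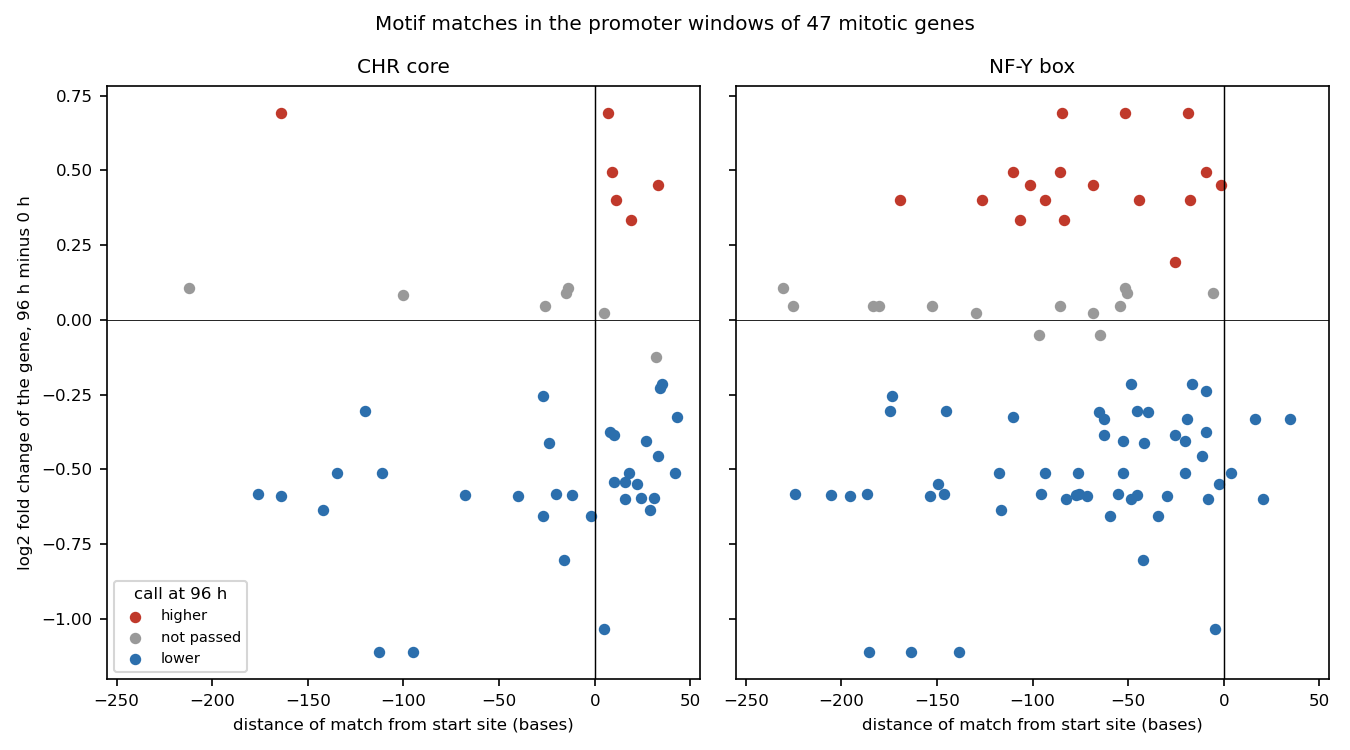
Distance from the RefSeq start of transcription in bases (x axis) of each match to the CHR core (one panel) and the NF-Y box (the other) in promoters of the mitotic genes, with the log2 fold change of the gene (96 h minus 0 h) on the y axis. CHR cores gather near the start and NF-Y boxes before it, in genes above and below 0 alike.

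Of 136 further genes of mitosis, in 7 lists, 21 were higher, 69 lower and 46 did not pass, with a median log2 fold change of −0.21. Scaled by library size alone, 5 of them were higher and 100 lower. The shares of all tested genes, to set beside these and each list below, were 28.7% higher and 28.8% lower with TMM. With library size only, these shares were 17.6% higher and 42.7% lower. Of 33 other centromere and kinetochore genes, 6 rose and 15 fell (1 and 22 with library size only). Among them Zwint, a partner of KNL1, was 1.43-fold higher, at 161 ± 9.7 CPM at 96 h and 113 ± 2.0 CPM at 0 h (edgeR adjusted p = 1.63e-06), and Cenpw was at 16.6 CPM at 96 h and 11.4 CPM at 0 h, a rise that did not pass with library size only (adjusted p = 0.0618). The checkpoint gene Mad1l1 fell to 62.5 ± 3.1 CPM at 96 h, against 99.6 ± 2.6 CPM at 0 h, and Zw10 fell to 13.7 CPM at 96 h, against 24.6 CPM at 0 h. Of 15 genes of the G2 checkpoint and mitotic entry, 2 rose, Ensa (log2 fold change 0.36 ± 0.06) and the checkpoint kinase Chek2 (0.93 ± 0.16), and 7 fell, with Melk (−0.82 ± 0.07) and the histone kinase Haspin (−0.99 ± 0.11) at the smallest adjusted p. The rise of Ensa did not pass with library size only (adjusted p = 0.212), and 4 of the list rose with upper-quartile factors.

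Of 30 other spindle and cytokinesis genes, 6 rose and 13 fell. Upper-quartile factors gave 7 higher and 8 lower, beside 4526 higher and 3342 lower of all 13705 tested genes. With library size only, 3 rose and 23 fell, beside 17.6% higher and 42.7% lower of all tested genes. Pimreg, a mitotic regulator, was at 20.7 ± 1.4 CPM at 96 h and 10.4 ± 0.5 CPM at 0 h (log2 fold change 0.99 ± 0.10), and Arhgap11a, a RhoA GTPase-activating protein, was at 361 ± 19 CPM at 96 h and 266 ± 21 CPM at 0 h (0.44 ± 0.06). The kinesin Kif18b was at 34.2 ± 2.7 CPM at 96 h and 67.4 ± 5.8 CPM at 0 h (−0.98 ± 0.08), and Kif2a fell less (−0.33 ± 0.05). Condensin II and cohesin were lower nearly throughout, with 13 of 14 genes lower and a median log2 fold change of −0.44. The cohesin subunit Stag1 was at 35.0 ± 2.6 CPM at 96 h and 97.3 ± 5.5 CPM at 0 h (−1.48 ± 0.07), and the cohesin regulator Pds5b was at 60.3 ± 4.6 CPM at 96 h and 133 ± 8.6 CPM at 0 h (−1.14 ± 0.07). The sororin gene Cdca5, which protects cohesion, did not pass (−0.13) but did with library size only (−0.38).

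Of 18 APC/C genes and regulators, 4 rose and 7 fell, with Anapc16 (log2 fold change 0.32 ± 0.07) and Anapc2 (0.24 ± 0.05) higher, and Anapc15 (−1.05 ± 0.09) and the APC/C inhibitor Fbxo5 (−0.74 ± 0.06) lower. Beside these counts, 28.7% of all tested genes were higher and 28.8% lower. With library size only 13 of the 18 fell, beside 42.7% of all tested genes. Neither named rise passed with that scaling (log2 fold change 0.070 for Anapc16 and −0.013 for Anapc2). Of 14 genes of MuvB, DREAM and NF-Y, 1 rose and 7 fell. The riser was Rbl2, the p130 pocket protein of the repressive DREAM complex, at 21.2 ± 2.1 CPM at 96 h and 15.8 ± 0.6 CPM at 0 h (0.42 ± 0.09, edgeR adjusted p = 0.00165), which did not pass with library size only (0.17, adjusted p = 0.198). The NF-Y subunit Nfyc fell (−1.20 ± 0.12), as did Rbbp4, a histone-binding subunit of MuvB, at 112 ± 3.2 CPM at 96 h and 193 ± 3.2 CPM at 0 h. Of 12 centriole genes, 2 rose, Cdk5rap2 (0.29 ± 0.05) and Cntrob (0.53 ± 0.12), and 7 fell, with Cep135 (−0.96 ± 0.13) and Cep152 (−0.70 ± 0.10) among them. With library size only 10 fell, and neither rise passed (adjusted p = 0.598 for Cdk5rap2 and 0.0692 for Cntrob). DNA replication genes, set beside the mitotic ones as the S phase programme, were lower in 42 of 46, with 1 higher and a median log2 fold change of −0.64. The 56 mitotic genes, at −0.34, lay between this median and that of all tested genes; the difference was not tested.

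**Figure D5:**
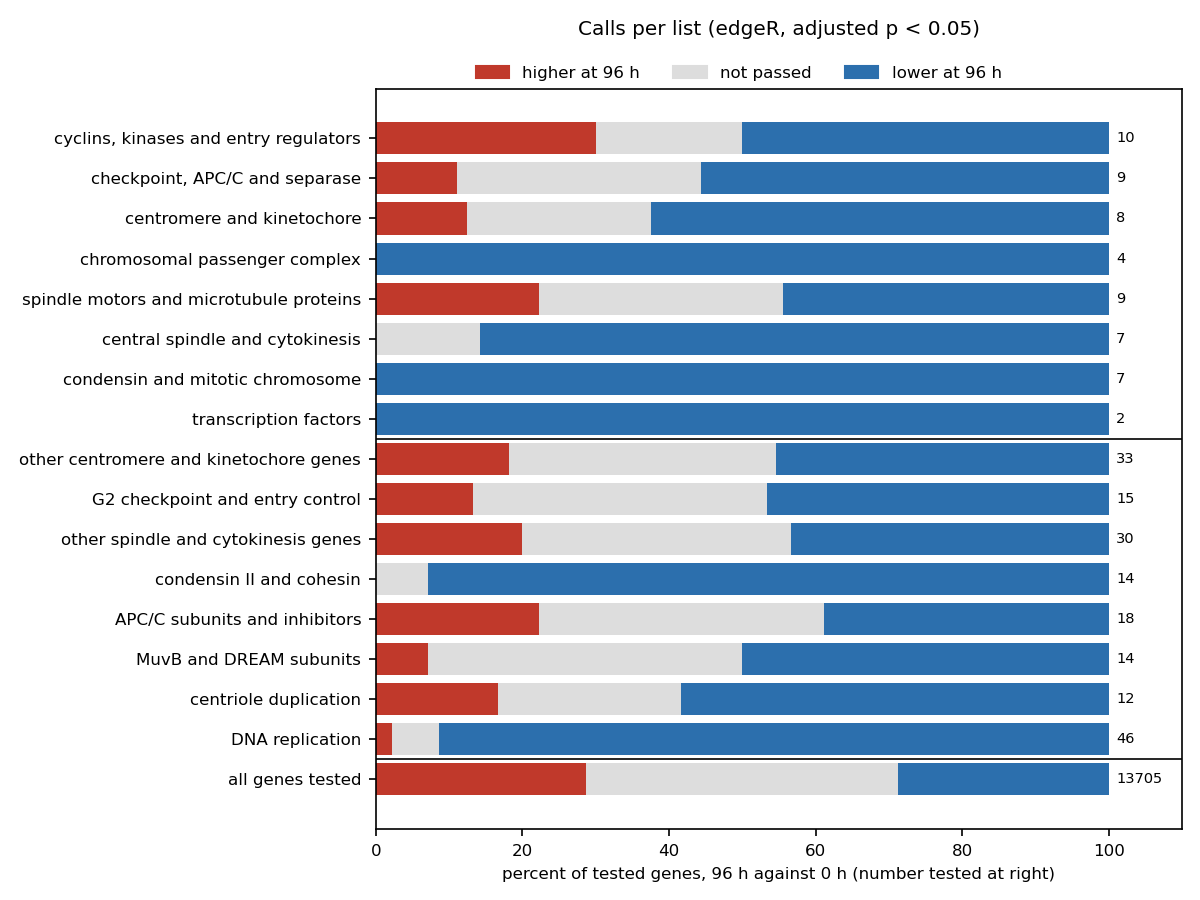
Share of tested genes (x axis, percent) that were higher at 96 h, not passing or lower at 96 h in each role group, in the other mitotic lists, in the replication list and among all tested genes. The passenger complex, the condensin and chromosome group and the transcription factors are lower throughout, while spindle genes and cyclins are mixed.

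Reads that genes share limit some values. Exons of 14 of the 56 genes overlap a gene on the opposite strand and those of 3 overlap a gene on the same strand (GENCODE M21, GRCm38). The kit keeps strand, but no source used here gives the strand setting of the counting, so reads of such genes and their antisense partners may not be separated. Among the 7 higher genes, Cdc25b is the one with such an overlap, by Spef1.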

How the data were processed

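Ribosomal RNA was depleted, a stranded total RNA kit was used and both ends were sequenced, per the labels' protocols. The submitters' processing notes name FastQC 0.12.1, Salmon 1.10.1, DESeq2 1.52.0 and mm39. Their roles, the annotation and the strand setting are not stated in those notes. Values deposited by the authors are estimated counts per gene without normalisation (11.6% were not whole) and were rounded.

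In edgeR 4.0.16 (R 4.3.3), filterByExpr kept 13705 genes, TMM factors scaled the libraries, and the quasi-likelihood F test compared 3 libraries at 96 h with 3 at 0 h, with Benjamini-Hochberg adjustment over all tested genes and a threshold of 0.05. The procedure was tested on simulated data, where the share of false calls was above the nominal one. In the simulation far fewer genes changed than were called here, and library makeup did not differ between groups. It therefore does not give the share of false calls in these data. The SE of a log2 fold change was taken as its absolute value divided by the square root of F. CPM use TMM-scaled library sizes. The labels name no batch. No pair of libraries agreed within sampling noise (chi-square per degree of freedom 6.37 to 13.5).

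The members, their role groups and the other lists were chosen with earlier results of these data known. All 56 members are accounted for. From each other mitotic list the 2 higher and 2 lower genes with the smallest adjusted p are named, and replication genes are given as counts and a median. Promoters are RefSeq windows (GRCm38.p6), and transcript lengths and overlaps are from GENCODE M21 (GRCm38). Alternatives were 3 other scalings, 2 other filters, limma-voom (limma 3.58.1), DESeq2 1.42.0 with its Wald test, a threshold of 0.01, removal of structural RNA genes, a replicate block and leaving out each library.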

Additional observations from a re-analysis of the deposited data

How the results depend on the processing

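The counts of 7 higher and 38 lower mitotic genes came out the same with DESeq2 size factors, with structural RNA genes removed and with the replicate block. Scaling by library size only left 3 higher and 44 lower; the cause was not tested. Over the other settings 5 to 7 were higher and 36 to 39 lower, and leaving out each library gave 5 to 7 higher and 37 to 38 lower. The sign of 10 genes turned under at least 1 setting. With library size only, the log2 fold changes were −0.057 for Cdc25b, −0.022 for Cdc25c, −0.16 for Cdc20, −0.20 for Ube2c, −0.23 for Cenpf, −0.17 for Kif2c, −0.17 for Kif18a, −0.14 for Kif22 and −0.24 for Kif20a. Upper-quartile factors gave 0.030 for Ccnb1. Without a filter, Cenpf was at −0.011 and Kif20a at −0.028, and the DESeq2 Wald test gave −0.0055 for Cenpf and −0.022 for Kif20a. When each library was left out in turn, Kif20a ran from −0.065 to 0.047, Cenpf from −0.013 to 0.054, Ube2c from −0.012 to 0.081 and Kif22 from −0.0050 to 0.19. No shared deviation by replicate number was seen: deviations of same-numbered libraries correlated at −0.014, 0.014 and −0.005, and not every library correlated best with its own number. This cannot show that the samples were unpaired. Cdc25c, at under 6 CPM in every library, has the widest error of the 56 genes (SE 0.24 on the log2 scale).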
